A study of Mus musculus with 7 samples.

Results

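Monocytes from CT-2A gliomas growing in the mouse brain are described here across their genes. They are the cells that the deposited cell table names "Monocytes (P1-P2)": 1521 of 28644 cells, or 5.31% of all cells and 16.8% of the monocytes, macrophages and monocyte-derived dendritic cells (mo-DCs) together. They were set beside 5956 macrophages, in which the annotations Macrophages (P3), Macrophages (P5) and Macrophages (Proliferating) were joined (2095, 3459 and 402 cells), and beside 1569 mo-DCs. All names and cells are those of the deposited table, and what P1 to P5 stand for is not given in the sources used here.

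CT-2A is a mouse glioma line. The tumour-bearing hemisphere of each of 7 mice was made into a cell suspension that was frozen and later thawed. Live cells that stained for CD45, CD11b or both were sorted for droplet sequencing from the 5′ end of transcripts, with 1 library per mouse. The 4 KO mice carried floxed Siglece alleles and the Sall1-CreERT2 driver, a tamoxifen-activated recombinase expressed from Sall1, which encodes a transcription factor of microglia. The 3 WT mice carried the floxed alleles without the driver, so that the driver allele and the deletion cannot be told apart. Siglece encodes an inhibitory receptor that binds sialic acid. Mice of both genotypes were 8 to 12 weeks old when the tumour cells were injected, and both were given 2.5 mg of tamoxifen per injection, daily from day 7 after tumour injection and every other day from day 21. The design asks what the loss of Siglece from microglia does to the immune cells of the tumour. The gene of the driver was nearly silent in monocytes: Sall1 had 0 UMIs in the monocytes of every KO mouse and 5, 0 and 1 in those of WT replicates 1 to 3.

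Classical monocytes are made in the bone marrow, leave it through the chemokine receptor CCR2 and circulate with a high level of Ly6C on their surface. In an inflamed or tumour-bearing brain they cross the vessel wall, and within the tissue they lose Ly6C and acquire the complement, lysosomal and lipid-handling genes of macrophages, or the antigen-presenting genes of dendritic cells. The names given to the monocytes, macrophages and mo-DCs place them in one lineage, but the origin of these cells was not tested.

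The monocytes were unevenly spread over the mice, with 34, 134, 97 and 206 cells in KO replicates 1 to 4 and 481, 189 and 380 cells in WT replicates 1 to 3. They held 9330838 UMIs (unique molecular identifiers, each counting 1 captured transcript), from 307548 in KO replicate 1 to 3320288 in WT replicate 1, and the median per cell ran from 4483 (KO replicate 2) to 8586 (KO replicate 1). Levels are given in CPM, the UMIs of a gene per 1000000 UMIs of the summed monocytes of a mouse. A barcode found in another library was carried by 54 monocytes, and 2 barcodes occurred in the monocytes of more than 1 library. Values that are not whole numbers carried 4.886% of the monocyte UMIs. The median ribosomal share of UMIs was 11.3, 11.8, 12.3 and 11.5% in the KO monocytes and 8.45, 10.3 and 10.2% in the WT monocytes, so that all KO mice lay above all WT mice.

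Transcripts of T cells were found in monocytes of both genotypes. At least 1 UMI of Cd3e, Cd3d, Cd3g, Trac, Trbc2, Cd8a or Cd8b1 was present in 32.5% of KO monocytes (153 of 471) and 9.05% of WT monocytes (95 of 1050). By mouse the shares were 2.94, 25.4, 50.5 and 33.5% in KO and 4.37, 12.2 and 13.4% in WT, so that KO replicate 1 was lowest and the other 3 KO mice were above the WT mice. Macrophages held such a UMI in 29.1% of KO and 12.3% of WT cells, and mo-DCs in 31.4 and 11.9%. All 10 T cell markers were detected in the monocytes, with a summed level of 78.0, 97.9, 111 and 120 CPM in KO and 62.0, 52.3 and 72.3 CPM in WT. The 8 neutrophil markers summed to 354, 442, 403 and 324 CPM in KO and 317, 260 and 517 CPM in WT, which overlap. Most of that sum was Il1r2, at a mean of 267 CPM and higher in mo-DCs (699 CPM), while Csf3r was at 60.4 CPM, S100a8 at 40.5 CPM and S100a9 at 4.00 CPM, and Ly6g had 1 UMI in all monocytes. Of the 5 mast cell and basophil markers 4 were at 0, and the erythroid markers summed to between 0 and 1.51 CPM. B cell markers summed to 20.7 to 55.5 CPM. Handling of doublets is not given in the sources used here.

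The 4 markers that come with the annotation were high in these cells, as the plot of marker levels by annotation shows. Ly6c2 encodes the surface protein by which classical monocytes are sorted. It stood at 2270, 4180, 3710 and 2520 CPM in the KO mice and at 5700, 2130 and 3210 CPM in the WT mice. Its mean of 3390 ± 1270 CPM (SD, n = 7) was below the 3770 CPM of plasmacytoid dendritic cells and above the 1320 CPM of Macrophages (P3) and 130 CPM of Macrophages (P5).

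Ccr2, the receptor that guides monocytes out of the marrow, had its highest mean in the monocytes among the classes compared. In these, all T cell names were joined. Its levels were 439, 467, 467 and 274 CPM in KO and 301, 363 and 277 CPM in WT monocytes. The mean was 370 ± 87.8 CPM, beside 285 ± 101 CPM in Macrophages (P3). Within mice it was higher in monocytes than in P3 macrophages in 6 of 7, with a log2 ratio of 0.41 ± 0.41 (SD). It was at 84.8 CPM in Macrophages (P5) and 73.9 CPM in mo-DCs.

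Plac8, a small cysteine-rich protein of monocytes and lymphoid cells, separated monocytes from macrophages more than from mo-DCs. It was at 1170 ± 433 CPM in the monocytes, with 1040, 620, 1190 and 1660 CPM in KO and 1830, 891 and 952 CPM in WT. Its mean was 251 CPM in Macrophages (P3), 25.1 CPM in Macrophages (P5) and 689 CPM in mo-DCs, and it was higher still in plasmacytoid dendritic cells (2300 CPM). Ms4a4c, a membrane-spanning protein of the MS4A family, had its highest mean among the same classes in monocytes, at 633 ± 236 CPM. It was at 358, 341, 677 and 682 CPM in KO and 1040, 649 and 684 CPM in WT. Macrophages (P3) held 351 CPM, mo-DCs 279 CPM and Macrophages (P5) 186 CPM. The KO and WT mice overlapped for each of the 4 markers.

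**Figure D1:**
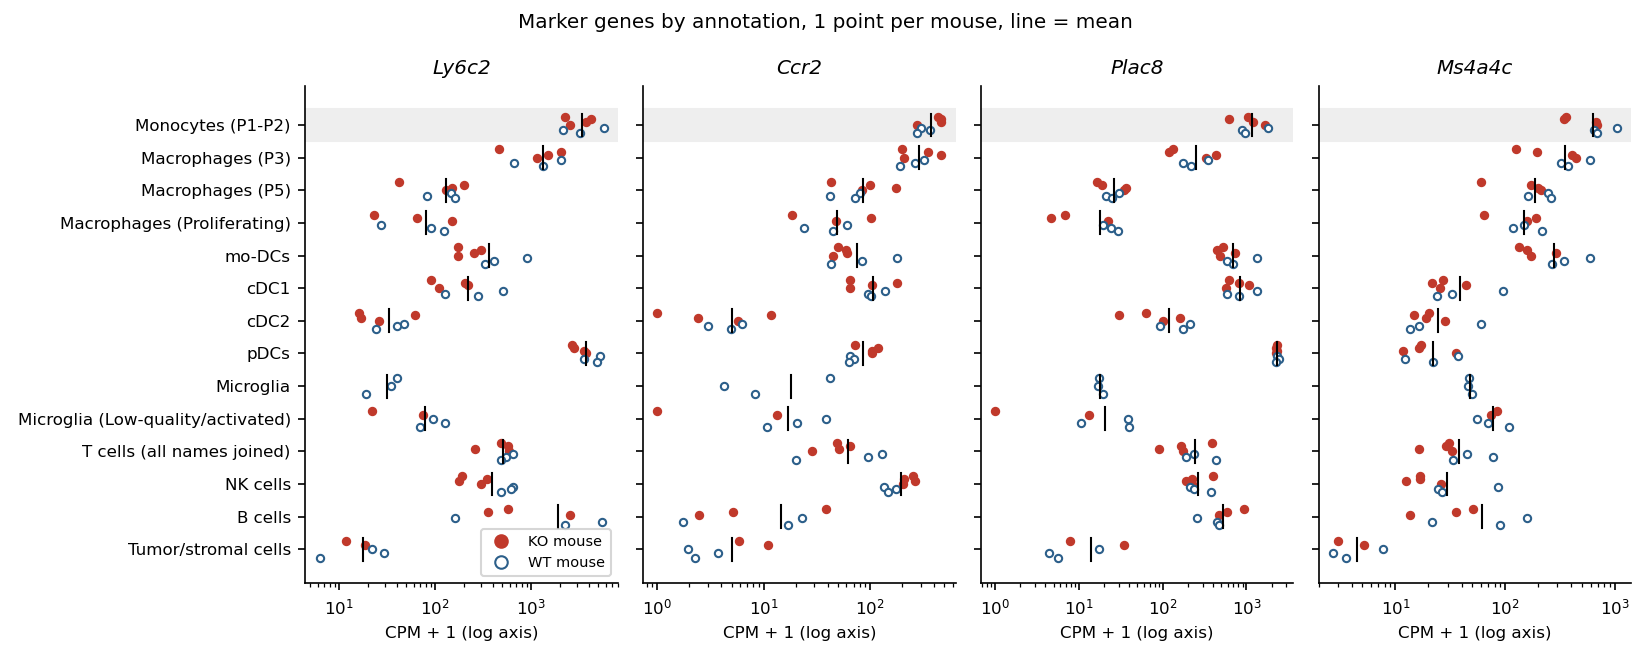
Levels of Ly6c2, Ccr2, Plac8 and Ms4a4c in CPM + 1 (log axis) by cell annotation, with 1 point for each mouse that had enough cells (KO filled, WT open) and a black line at the mean. All T cell names are joined. Among the classes shown, Ccr2 and Ms4a4c have their highest means in the monocytes, while Ly6c2 and Plac8 are higher in plasmacytoid dendritic cells.

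The share of cells with a UMI was compared at equal depth. With every cell thinned to 2000 UMIs (22 shallower monocytes left out, 1499 kept), Ly6c2 was found in 85.4% of monocytes, 61.1% of Macrophages (P3), 13.2% of Macrophages (P5) and 23.7% of mo-DCs. Without thinning it was found in 94.5% of monocytes. T cells, with a median of 4748 UMIs against 5730 in monocytes, held Ly6c2 in 30.1% of cells, but some T cells express Ly6c2 themselves. Chil3 and Hp, which T and B cells should lack, were found in 2.48 and 0.264% of T cells and 1.72 and 0.396% of B cells (median 7302 UMIs). In the monocytes these shares were 58.9% for Chil3 (69.8% unthinned) and 41.0% for Hp (59.7% unthinned). In mo-DCs they were 3.56 and 1.36%.

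Levels between annotations are descriptions without a test, because the annotations were made from the same cells and genes. Ratios are log2((CPM + 1)/(CPM + 1)) within a mouse, averaged over 7 mice. Among 10461 genes, 261 (2.49%) were at least 2-fold higher in monocytes than in macrophages in the mean and higher in every mouse, and 640 (6.12%) were lower by the same rule. The joined macrophages include Macrophages (Proliferating), and the lower genes numbered 413 with G1 cells alone and 106 with at least 50 CPM in the higher class. Against mo-DCs, 597 of 9117 genes (6.55%) were higher and 878 (9.63%) lower, or 377 and 283 with at least 50 CPM in the higher class. The nearest annotation was Macrophages (P3), from which 76 of 8461 genes (0.898%) were higher in monocytes and 59 (0.697%) lower, compared with 359 (3.67%) and 643 (6.58%) of 9771 genes for Macrophages (P5). For Macrophages (Proliferating), with enough cells in 6 mice, they were 534 (7.02%) and 924 (12.1%) of 7610. The median ratio over all genes was -0.20 against macrophages and -0.22 against mo-DCs. Both comparisons share the monocytes, so their values are set side by side and not combined.

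Secreted proteins of blood monocytes were among the genes above macrophages. Vcan, a proteoglycan that classical monocytes make, was at 60.4 ± 35.2 CPM in monocytes and 5.16 CPM in macrophages (log2 ratio 3.27). It was highest in KO replicates 1 and 4 and varied among mice, between 13.8 and 117 CPM. Hp, the haemoglobin-binding protein haptoglobin, varied less, at 426, 451, 312 and 399 CPM in KO and 393, 411 and 411 CPM in WT, against a mean of 58.9 CPM in macrophages and 10.5 CPM in mo-DCs (ratios 3.10 and 5.58).

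Chil3, a chitinase-like secreted protein, had the largest ratio to mo-DCs of the genes ranked, 6.77, and a ratio of 2.90 to macrophages. Its levels were 4400, 4170, 586 and 4460 CPM in KO and 1780, 1570 and 4990 CPM in WT, against means of 448 and 34.4 CPM in macrophages and mo-DCs. KO replicate 3 was low in Chil3 and, at 13.8 CPM, in Vcan. Other leading genes above macrophages were Ly6a2 (3.90), Plac8 (3.65), the interferon-induced membrane protein Ifitm6 (3.30), the acute-phase protein Saa3 (2.92), Ly6c2 (2.85) and Clec4e (2.64). Clec4e encodes Mincle, a receptor for microbial glycolipids and dying cells, and was at 627 ± 277 CPM against 98.7 CPM.

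The other genes furthest above mo-DCs included several secreted proteins. Thbs1, the platelet and macrophage adhesion protein thrombospondin 1, was at 1740 ± 669 CPM in monocytes and 84.8 CPM in mo-DCs (ratio 4.89). F10, coagulation factor X, was at 231 ± 33.3 CPM and ranged only from 200 to 280 CPM over the mice, against 8.02 CPM (5.02). Cxcl1, a neutrophil-attracting chemokine, was at 289 against 11.5 CPM (4.98), and Acod1, the enzyme that makes itaconate in activated myeloid cells, at 287 against 10.5 CPM (4.76). The remaining leading genes were Ly6a2 (5.65), Hp, Saa3 (5.10), Vcan (4.93) and the protease inhibitor Slpi (4.87).

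The gene furthest below macrophages was Ccl8, a chemokine of tissue macrophages. It was at 0, 0, 0 and 8.98 CPM in KO and 1.20, 16.5 and 7.40 CPM in WT monocytes, against a mean of 103 CPM in macrophages (ratio -4.39). Cd81, a tetraspanin, was at 42.1 ± 12.7 against 509 CPM (-3.58), with the mice between 19.4 and 56.0 CPM. Fcrls, known as a microglial gene, was at 18.6 against 242 CPM (-3.57). Birc5 (-3.57), Pclaf (-3.16) and Ube2c (-2.98) act in DNA replication and mitosis. The adhesion molecule Cadm1 (-3.15) and the prostaglandin synthase Hpgds (-2.62) were also in this group, as were Hist1h2ap (-3.26) and Hspb1 (-2.80), for which 77.6 and 72.2% of the UMIs lay in values that are not whole and which are uncertain for that reason.

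The genes furthest below mo-DCs included a chemokine and a lectin. Ccl17, a T cell-attracting chemokine, was at 3.01 CPM in monocytes and 167 CPM in mo-DCs (ratio -5.85). Mgl2, a lectin of monocyte-derived and type 2 dendritic cells, was at 6.93 against 261 CPM (-5.37). The others were Ppp1r14a (-5.89), the lectin-like receptor Klrd1 (-5.69), the adhesion molecule Epcam (-5.68), Spint2 (-5.63), Ctnnd2 (-5.62), the phosphatidylserine receptor Timd4 (-5.55), Cd7 (-5.49) and Plet1 (-5.46).

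**Figure D2:**
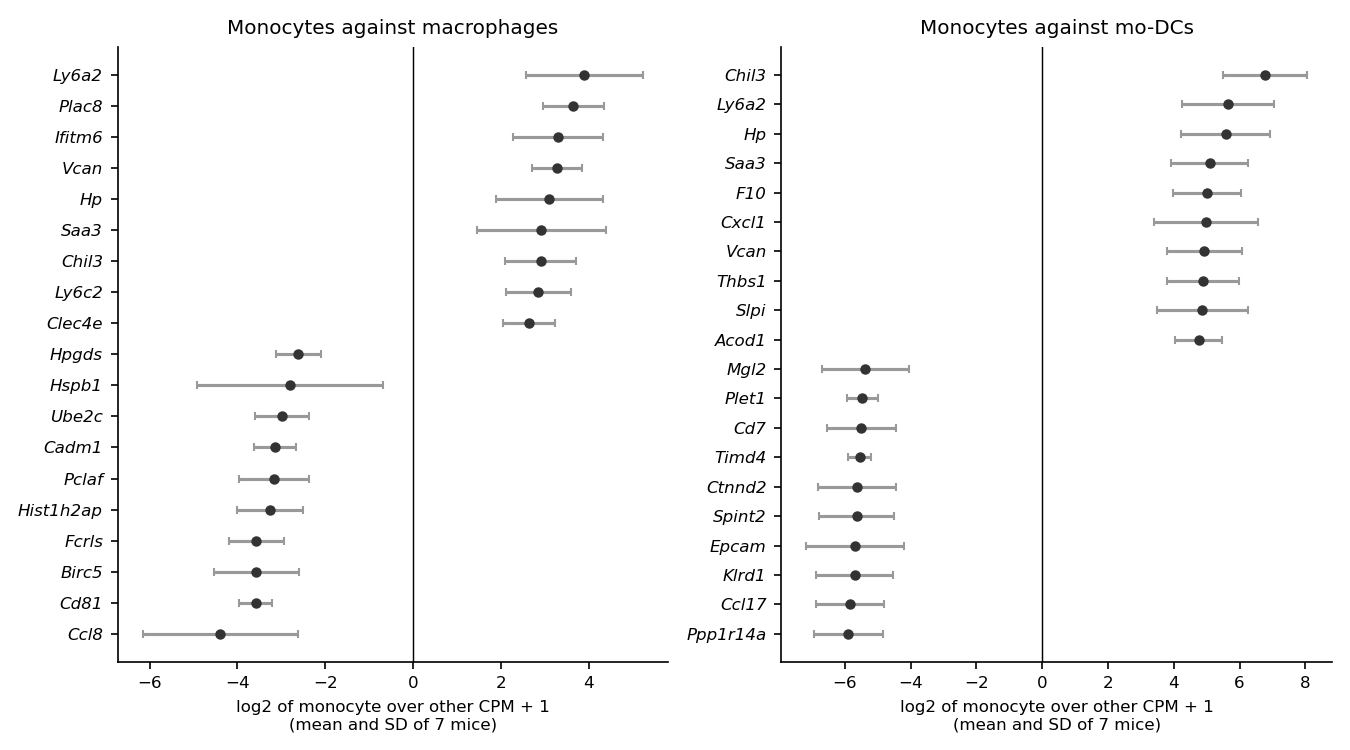
Log2 ratio of monocytes to macrophages (left) and to mo-DCs (right) for genes of the largest mean ratios in each direction, as mean ± SD over 7 mice. Plac8, Vcan and Hp are among the highest above macrophages, Chil3 leads above mo-DCs, and Ccl8 (-4.39) and Ccl17 (-5.85) are among the lowest.

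Lists of genes by function were compared with macrophages and mo-DCs. Of 14 classical monocyte genes, 12 were at least 2-fold higher than in macrophages (median ratio 2.74, 2.49% of all genes). Against mo-DCs 11 were higher (4.04, 6.55% of all genes), and against Macrophages (P3) 8 (1.40, 0.898%). The 14 include the 4 markers that come with the annotation. Of these markers 4 were higher than in macrophages, 3 than in mo-DCs and 2 than in Macrophages (P3). The counts thus describe the annotation and are no independent support for it. Of 14 macrophage markers, 11 were lower than in macrophages (-1.47, 6.12% of all genes), yet 8 were higher than in mo-DCs (1.66, 6.55%). All 12 mo-DC markers tested were lower than in mo-DCs (-3.24, 9.63% of all genes), as were 8 of 9 conventional dendritic cell markers (-2.73). Genes of non-classical monocytes were low, with Treml4 at 11.1 CPM, Ace at 10.1 CPM and Cd300e at 1.27 CPM. Nr4a1, the nuclear receptor on which non-classical monocytes depend and an immediate-early gene, was at 696 ± 191 CPM against 234 CPM in macrophages.

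Interferon-induced genes, which limit virus replication and mark a type I interferon signal, were high in monocytes. Of 40, 14 were at least 2-fold higher than in macrophages (2.49% of all genes) and 19 than in mo-DCs (6.55%), with medians of 0.95 and 0.92. In either comparison 0 were lower, where 6.12 and 9.63% of all genes were. Ifitm3, a membrane protein that blocks virus entry, was at 3250 CPM in monocytes, 1510 CPM in macrophages and 2720 CPM in mo-DCs. Ifi27l2a was at 1560, 823 and 584 CPM, and Isg15, a ubiquitin-like modifier, at 955, 324 and 430 CPM. Cxcl10, which attracts T cells, was at 860, 265 and 179 CPM. At 2000 UMIs per cell, Isg15 was found in 64.0% of monocytes, 37.0% of Macrophages (P3) and 36.0% of mo-DCs, with 16.7% of T cells and 8.84% of B cells, which can express it too.

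Inflammatory cytokines and chemokines were also high. Of 29 such genes 12 were at least 2-fold higher than in macrophages (2.49% of all genes) and 3 were lower (6.12%), with a median of 0.91. Of 26 tested against mo-DCs 20 were higher (6.55% of all genes, median 1.72). Il1b, the fever-inducing cytokine interleukin-1 beta, was at 5660 CPM in monocytes, 1480 CPM in macrophages and 1840 CPM in mo-DCs. Cxcl2, a neutrophil-attracting chemokine, was at 4030, 1450 and 389 CPM. Among the exceptions were the monocyte-attracting chemokines Ccl7 (50.2 CPM in monocytes, 277 CPM in macrophages) and Ccl12 (112 and 515 CPM). The dissociation stress genes, which can rise while tissue is digested, had medians of 0.45 and 0.17, with Fos at 3540 CPM in monocytes, 2960 CPM in macrophages and 1890 CPM in mo-DCs, and their part in these levels was not tested.

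Antigen presentation genes of MHC class II had a median close to macrophages and below mo-DCs. Of 11 genes, 0 differed by 2-fold from macrophages (median 0.18). Among all genes 2.49% were higher and 6.12% lower, so the count of 0 is near these shares. Against mo-DCs 8 were lower (9.63% of all genes) and 1 higher (6.55%), with a median of -1.45. Cd74, the invariant chain, was at 12900 CPM in monocytes, 12400 CPM in macrophages and 28100 CPM in mo-DCs. H2-Ab1, a chain of the class II molecule itself, was at 3290, 2720 and 8560 CPM. The loading factors H2-DMb2 (27.1 and 626 CPM) and H2-Oa (12.6 and 399 CPM) were furthest below mo-DCs.

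Genes that monocytes gain as they become macrophages were at lower levels. Of 28 genes of lysosome, lipid handling and complement, 6 were at least 2-fold lower than in macrophages (6.12% of all genes, median -0.70). Against mo-DCs 16 of 26 were higher (6.55% of all genes, median 1.49). C1qb, a chain of the first complement component, was at 2020 CPM in monocytes, 5400 CPM in macrophages and 616 CPM in mo-DCs. Apoe, a lipid carrier, was at 8730, 17100 and 1500 CPM. The scavenger receptor Stab1, a member of the receptor list that follows, was at 66.9, 224 and 23.8 CPM.

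Receptors for microbes and debris had a median close to macrophages and were mostly above mo-DCs. Of 22 receptors 4 were at least 2-fold higher than in macrophages (2.49% of all genes) and 2 lower (6.12%, near that share), with a median of -0.19. Against mo-DCs 16 of 20 were higher (6.55% of all genes, median 1.95). The lipopolysaccharide co-receptor Cd14 was at 2610, 1060 and 225 CPM in the order monocytes, macrophages, mo-DCs. The beta-glucan receptor Clec7a was at 595, 247 and 268 CPM, and Mertk, which takes up dying cells, at 49.2, 111 and 10.8 CPM. Lyz2, lysozyme, from the list of oxidase and antimicrobial genes, was at 9670, 6310 and 714 CPM.

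The suppressive and angiogenic genes of tumour myeloid cells did not go one way. Of 26 such genes 9 were at least 2-fold higher than in macrophages (2.49% of all genes) and 2 lower (6.12%, near that share), with a median of 0.80. Against Macrophages (P3), however, 1 of 25 was higher (0.898% of all genes) and 3 were lower (0.697%), with a median of 0.07. Arg1, the arginine-degrading enzyme, was at 445, 443, 187 and 255 CPM in KO and 54.2, 673 and 496 CPM in WT monocytes, against 1210 CPM in Macrophages (P3), a ratio of -1.88. Spp1, osteopontin, had a ratio of -2.26 to the same cells. Vegfa, the vessel growth factor, was higher in monocytes than in macrophages, at 658 against 379 CPM, and so was Trem1 (206 against 78.6 CPM).

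Of 24 transcription factors and growth factor receptors of the lineage, 4 were at least 2-fold higher (2.49% of all genes) and 2 lower (6.12% of all genes) than in macrophages (median 0.29). Against mo-DCs 8 of 23 were higher (6.55% of all genes) and 4 lower (9.63%), with a median of 0.42. Cebpb, a factor of myeloid cells, was at 3540 CPM in monocytes, 1940 CPM in macrophages and 560 CPM in mo-DCs, and Klf4, needed for monocyte differentiation, at 536, 267 and 300 CPM. The macrophage factor Maf was lower in monocytes than in macrophages (40.2 and 96.3 CPM). Csf1r, the receptor for the growth factor CSF1, was at 693 CPM in monocytes, close to the 718 CPM of macrophages, and at 175 CPM in mo-DCs. The dendritic factors and receptors Flt3, Kit and Irf4 were at ratios of -3.38, -5.04 and -2.51 to mo-DCs. Of 22 proliferation genes 20 were at least 2-fold lower than in macrophages (median -2.29, 6.12% of all genes), with Mki67 at 48.9 against 144 CPM. The joined macrophages include Macrophages (Proliferating). Against Macrophages (P3) 2 of 13 were lower (-0.73, 0.697% of all genes). Against Macrophages (P5) 16 of 21 were lower (-1.89, 6.58%), and against mo-DCs 16 of 20 (-2.21, 9.63%). Glycolytic and hypoxia-induced genes did not differ by 2-fold from macrophages in any of 22 cases (median 0.02). Among all genes 2.49% were higher and 6.12% lower, so the count of 0 is near these shares. The macrophage annotations differed in this. Against Macrophages (P3) 0 of 22 were higher and 1 was lower (0.697% of all genes), with a median of -0.31. Against Macrophages (P5) 3 of 22 were higher (3.67%, median 0.22), and against Macrophages (Proliferating) 6 of 22 (7.02%, median 0.53). Against mo-DCs 7 were higher (6.55% of all genes, median 0.74).

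Within the annotation the number of UMIs per cell varied. At 2000 UMIs, 30.2% of monocytes had no H2-Ab1 UMI, 42.6% had 1 to 9 and 27.3% had 10 or more, and for Chil3 these shares were 41.1, 37.3 and 21.6%. T cells held an H2-Ab1 UMI in 21.9% of cells (10.7 to 30.0% over the mice), so a monocyte with such a UMI need not express the gene. Monocytes with an H2-Ab1 UMI (1047 cells) held C1qa in 60.6% of cells, and those without (452 cells) in 34.5%. Monocytes with a Chil3 UMI (883 cells) held H2-Ab1 in 63.3%, and those without (616 cells) in 79.2%. C1qa was found in 13.7% of B cells (5.41 to 28.0% over the mice) and 17.0% of T cells (9.50 to 30.8%) at this depth, which is background. The monocytes without an H2-Ab1 UMI held C1qa in 21.4 to 42.2% of cells over the mice, a range that overlaps this background. These shares are over cells of all mice, are limited by depth and have no test. Arg1 was found in 22.9% of monocytes and 57.9% of Macrophages (P3), with 3.18% of T cells and 2.37% of B cells.

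The first question about the genotypes was what share of each library the monocytes made up, which is not their number in the tumour. They made up 2.41, 2.53, 2.04 and 3.52% of all cells in KO and 16.4, 4.25 and 9.63% in WT, so that every KO mouse was below every WT mouse. The means were 2.62 ± 0.63% (SD, n = 4) and 10.1 ± 6.09% (n = 3), a difference of -7.47 percentage points (exact permutation p = 0.0286, two-sided and the smallest that 35 divisions allow, 0.0857 after Benjamini-Hochberg adjustment over 3 shares). Without WT replicate 1 it was -4.31 points. Cells of all myeloid annotations, microglia included, were 662 of 1410, 2222 of 5305, 801 of 4744 and 1742 of 5856 in KO. In WT they were 2439 of 2934, 2487 of 4449 and 2466 of 3946. Every KO library thus held a smaller myeloid part than every WT library, and its part in the monocyte share was not tested. Among monocytes, macrophages and mo-DCs alone the monocytes made up 7.52, 9.29, 16.8 and 19.1% in KO and 26.0, 11 and 19.8% in WT, which overlap. That difference was -5.73 points (exact permutation p = 0.286, adjusted 0.429), and -2.19 without WT replicate 1. The share assigned by the authors to the S or G2M phase was 4.74 ± 4.43% in KO and 4.94 ± 1.30% in WT (exact permutation p = 0.943, adjusted 0.943), with 0 of 97 cells in KO replicate 3, which allows up to 3.73% (exact binomial, counting error only). The plot of shares puts these values beside the share of monocytes with T cell UMIs.

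**Figure D3:**
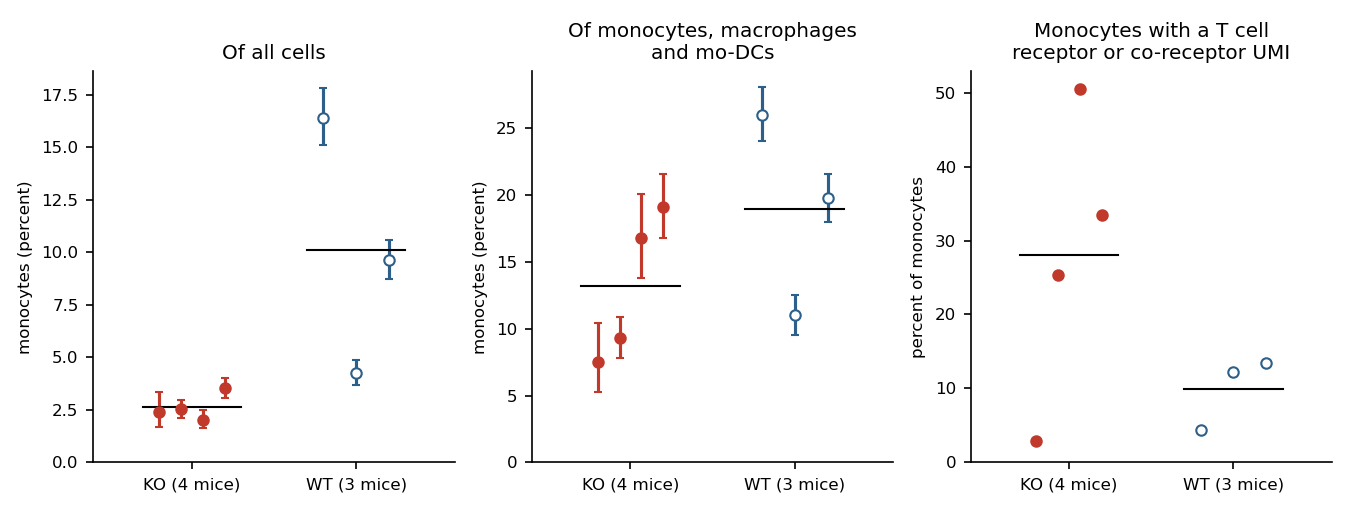
Percent of all cells that are monocytes, percent of monocytes, macrophages and mo-DCs that are monocytes (with 95% exact binomial intervals), and percent of monocytes with a T cell receptor or co-receptor UMI, 1 point per mouse and a line at each group mean. All 4 KO mice lie below the WT mice in the share of all cells, and the groups overlap in the other panels.

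The targeted gene was compared next. Siglece had 2, 13, 21 and 31 UMIs in KO and 72, 23 and 39 in WT monocytes, or 6.50, 20.4, 29.0 and 25.3 CPM against 21.7, 21.1 and 19.2 CPM. The groups overlap, with KO replicate 1 lowest from its 34 cells, and the edgeR log2 fold change of KO over WT was 0.08 with an SE of 0.29 (unadjusted p = 0.781). Its sign changed when KO replicate 3 or 4 was left out (-0.04 in both). Counts are per gene, and which exons were deleted is not given in the sources used here. Monocytes held less Siglece than macrophages (48.0 CPM) and mo-DCs (81.7 CPM). Cd33, another receptor of the Siglec family, was at 87.8, 127, 176 and 115 CPM in KO and 72.6, 62.4 and 76.5 CPM in WT, all KO mice above all WT mice. Its log2 fold change of 0.81 ± 0.21 (SE) was not called (adjusted p = 0.532 in edgeR). Siglec1, a macrophage adhesion receptor, was at -0.50 (unadjusted p = 0.0495), and Siglecg lay between 0 and 6.91 CPM.

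Across all genes no monocyte gene passed the test of KO against WT. edgeR called 0 of 7972 genes (0.0%) and DESeq2 also called 0, with 535 (6.71%) at an unadjusted p under 0.05 in edgeR, 293 lower (3.68%) and 242 higher (3.04%). All KO mice were below all WT mice for 3.14% of the genes and above them for 4.55%. In the same model the median log2 fold change was 0.001. The count was 3 without KO replicate 4 and 0 without any other mouse. T cell transcripts and the ribosomal share, given above, differ between the same groups. With the monocytes that held a T cell UMI left out, an alternative chosen after seeing the data, the count remained 0.

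The genes of smallest p are given as values that were not called. Ifi44, an interferon-induced gene, was at 6.50, 9.40, 9.68 and 6.53 CPM in KO and 34.9, 24.8 and 23.7 CPM in WT, a log2 fold change of -1.84 ± 0.29 (SE; adjusted p = 0.143 in edgeR). The groups did not overlap, here and for each of the genes that follow on the lower side. Genes picked for a small p tend to be separated in this way. All KO mice were below all WT mice for 3.14% of all genes. Ccdc88b, a regulator of immune cell activation, was at 35.8, 48.6, 52.5 and 56.3 CPM in KO and 108, 82.6 and 111 CPM in WT (-1.05, adjusted p = 0.253). Pilrb1, an activating receptor of myeloid cells, was at 9.75, 11, 11.1 and 19.2 CPM against 30.0, 31.2 and 35.6 CPM (-1.23, adjusted p = 0.532). Gm45222 (-1.55) and Hist1h2ap (-1.48, with the fractional values described above) completed the lower side, both at an adjusted p of 0.532.

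On the higher side all KO mice lay above all WT mice for each gene of smallest p (4.55% of all genes). These too were picked for a small p. Tbc1d9 was at 127, 153, 140 and 158 CPM in KO and 70.2, 79.8 and 73.0 CPM in WT, a log2 fold change of 0.94 ± 0.17 (SE; adjusted p = 0.253 in edgeR). Rbm3, an RNA-binding protein induced by cold, was at 1060, 630, 834 and 529 CPM against 293, 467 and 339 CPM (1.00). Hadh, an enzyme of fatty acid oxidation, was at 32.5, 28.2, 33.2 and 19.6 CPM against 11.1, 11.9 and 10.9 CPM (1.23), and Ugt1a7c, a glucuronosyltransferase, had a change of 0.91. These 3 had an adjusted p of 0.532 in edgeR. Gm5586 was at 22.7, 60.7, 40.9 and 5.80 CPM in KO and 1.58, 0.715 and 0.569 CPM in WT (4.71, adjusted p = 0.532 in edgeR), and is uncertain because fractional values carried 93.3% of the UMIs. It was called without KO replicate 4 (adjusted p = 0.000172 in edgeR), and was not among the genes tested without any one of the other KO mice. Among the listed genes outside the smallest p, Klf2, a factor of quiescent and circulating leukocytes, was at 923, 634, 514 and 283 CPM in KO and 269, 242 and 248 CPM in WT (1.16, unadjusted p = 0.00388). Ly6a2 was at 257, 138, 82.9 and 75.1 against 60.8, 34.9 and 53.8 CPM (1.32, unadjusted p = 0.0145), and Saa3 at 55.3, 47.0, 20.7 and 59.6 against 84.3, 105 and 224 CPM (-1.63, unadjusted p = 0.00613).

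Interferon-induced genes shared a sign in KO against WT, and no member was called. All 40 had a log2 fold change below 0 in monocytes (median -0.61), where 49.9% of all genes did. Of them 11 had an unadjusted p under 0.05 (3.68% of all genes on the lower side), and 3 (Ifi44, Isg15 and Bst2) had all KO mice below all WT mice (3.14% of all genes). The list was chosen with earlier results of these mice in view, so this direction is no independent evidence. Isg15 was at 566, 370, 789 and 952 CPM in KO and 1780, 1140 and 1090 CPM in WT, a change of -1.02 ± 0.31 (SE; unadjusted p = 0.00821, adjusted 0.599 in edgeR). Bst2, tetherin, which holds budding virus at the cell surface, was at 309, 413, 572 and 716 CPM against 1240, 869 and 834 CPM (-0.98 ± 0.26, unadjusted p = 0.00277, adjusted 0.536). Ifit3 was at 55.3, 61.6, 174 and 175 CPM against 352, 264 and 165 CPM (-1.13, unadjusted p = 0.0338), where WT replicate 3 lies among the KO mice.

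The summed level of the 40 genes was 9560, 7700, 12800 and 14600 CPM in KO and 19900, 14000 and 13200 CPM in WT, so KO replicate 4 was above 2 of the WT mice. The median was -0.34 without WT replicate 1 (39 of 40 below 0) and -0.76 without WT replicate 3 (37 of 40). It was -0.46 without KO replicate 2 (38 of 40) and -0.68 with equal numbers of cells per mouse (34 of 36). Without the monocytes that held a T cell UMI it was -0.66, with all 40 below 0. In macrophages 36 of the 40 were below 0 (median -0.38, with 48.7% of all genes below 0), 4 of them at an unadjusted p under 0.05 (2.59% of all genes). In mo-DCs all 40 were below 0 (-1.08, with 49.2% of all genes), 35 of them at an unadjusted p under 0.05 (4.22%). The difference of the genotype effect between monocytes and macrophages, tested gene by gene with a term for each mouse, had a median of -0.25 over the list, with 2 members at an unadjusted p under 0.05 on the lower side (4.31% of all genes) and 0 called in edgeR. Between monocytes and mo-DCs it had a median of 0.37, with 6 of 40 below 0 where 52.7% of all genes were. On the higher side 10 had an unadjusted p under 0.05 (519 of 10168 genes in either direction, 306 of them on the lower side), and again 0 were called. The changes of these genes were thus smaller in monocytes than in mo-DCs in the estimates, without a called difference.

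**Figure D4:**
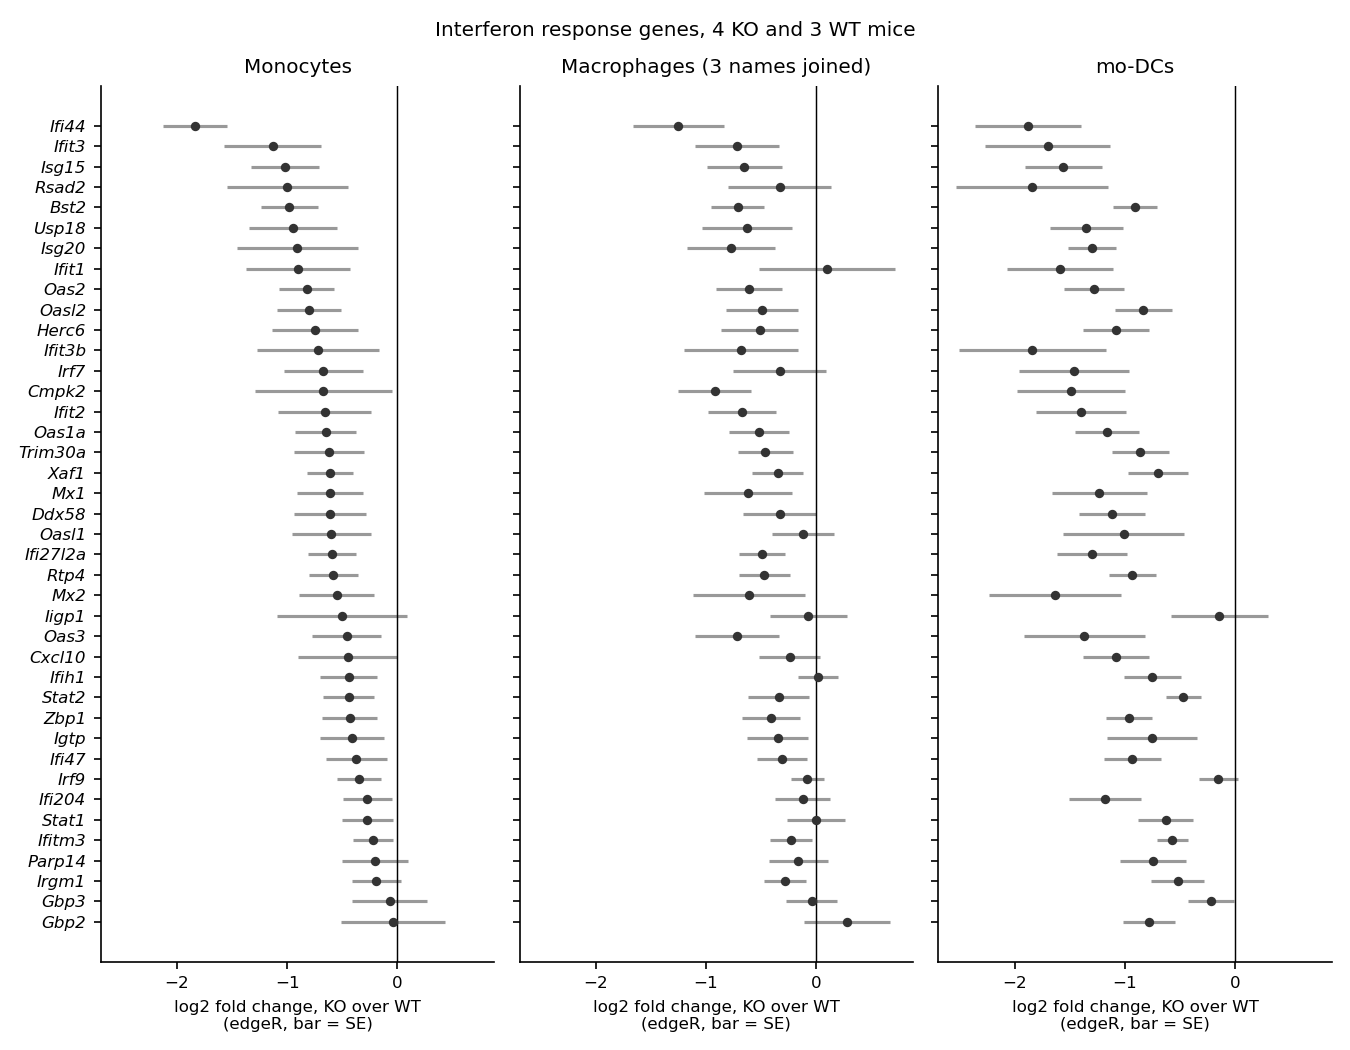
Log2 fold change of KO over WT for 40 interferon-induced genes in monocytes, macrophages and mo-DCs, as the edgeR estimate ± SE. In monocytes and mo-DCs all 40 estimates lie left of 0, with medians of -0.61 and -1.08, and none was called.

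The second group with a common sign was glycolysis and hypoxia. Of 22 genes tested in monocytes 21 had a log2 fold change below 0 (median -0.35), where 49.9% of all genes did. This list too was chosen with earlier results of these mice in view, so the common sign is no independent evidence. Of the 21 genes, 8 had an unadjusted p under 0.05 (3.68% of all genes on the lower side). All KO mice were below all WT mice for 5 (Hk2, Tpi1, Ero1l, Egln3 and Mif; 3.14% of all genes), and 0 were called. Hk2, hexokinase 2, which starts glycolysis, was at 55.3, 32.9, 53.9 and 49.0 CPM in KO and 65.4, 87.2 and 88.8 CPM in WT (-0.79, unadjusted p = 0.00234). Egln3, an oxygen sensor that is itself induced by low oxygen, was at 32.5, 21.9, 26.3 and 18.8 CPM against 36.1, 86.3 and 40.5 CPM (-1.19, unadjusted p = 0.00366). Tpi1, triose phosphate isomerase, was at 410, 401, 440 and 426 against 614, 614 and 523 CPM (-0.51, unadjusted p = 0.00452).

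The KO mice were closely grouped in Tpi1, and KO replicate 1 was closest to WT in Egln3. Ero1l, an oxidase of the endoplasmic reticulum, was at -0.66 and Mif, a cytokine that low oxygen induces, at -0.69. The abundant enzymes Gapdh (-0.47) and Ldha (-0.44) also had an unadjusted p under 0.05. The summed level was 8260, 5370, 5550 and 6810 CPM in KO and 7640, 8400 and 8070 CPM in WT, with KO replicate 1 above WT replicates 1 and 3. The median was between -0.48 and -0.27 without 1 mouse at a time, -0.24 with equal numbers of cells per mouse and -0.36 without the monocytes that held a T cell UMI.

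Macrophages did not show that sign, with 9 of 23 genes below 0 (median 0.02; 48.7% of all genes). In mo-DCs 18 of 23 were below 0 (-0.19; 49.2% of all genes). The difference between monocytes and macrophages was below 0 for 22 of 23 genes (median -0.36), where 53.8% of all genes were, and 5 had an unadjusted p under 0.05 on that side (4.31% of all genes). These were Hk2 (-0.68, unadjusted p = 0.00147), the lactate exporter Slc16a3 (-0.61), Ero1l (-0.76), Egln3 (-1.24) and the lipid droplet protein Hilpda (-0.64), and 0 were called. Vegfa, which low oxygen induces, was at 419, 318, 677 and 716 CPM in KO and 844, 899 and 731 CPM in WT monocytes (-0.66, unadjusted p = 0.0229 in edgeR), without overlap. It is not in this list but in that of suppressive and angiogenic genes, of which 10 of 25 were below 0 (median 0.05). Of those 25, 1 had an unadjusted p under 0.05 on the lower side (3.68% of all genes). All KO mice were below all WT mice for 1 (3.14%).

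**Figure D5:**
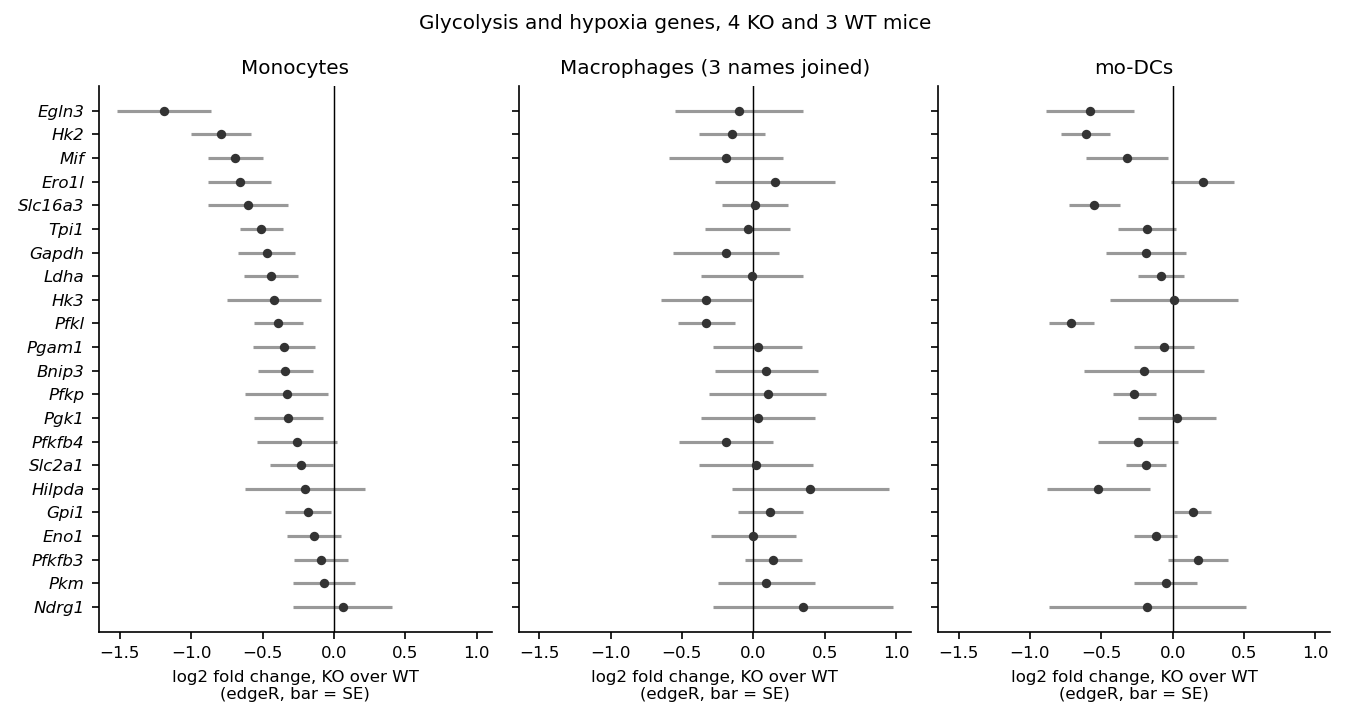
Log2 fold change of KO over WT for genes of glycolysis and hypoxia in monocytes, macrophages and mo-DCs, as the edgeR estimate ± SE. Each panel shows the 22 genes tested in monocytes, where 21 estimates lie left of 0 (median -0.35). Of all 23 genes tested in macrophages, 9 were below 0 (median 0.02). None was called.

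Promoters are shown for members of both groups, to set their sequence beside their values. They are the 3 interferon-induced genes and the 2 glycolysis and hypoxia genes of smallest p whose window held the motif searched. Each window is the 250 bases before the RefSeq start on GRCm38.p6, written 5′ to 3′ on the strand of the gene. Capitals mark matches to GAAA, any 2 bases and GAAA again, the core to which the interferon-activated factor ISGF3 binds, in Bst2, Isg15 and Ifit3, and to ACGTG, the core to which hypoxia-inducible factors bind, in Hk2 and Egln3, each searched on both strands. The windows are chr8:71537473-71537722 on the minus strand (Bst2), chr4:156200819-156201068 on the minus strand (Isg15), chr19:34583279-34583528 on the plus strand (Ifit3), chr6:82774455-82774704 on the minus strand (Hk2) and chr12:54203875-54204124 on the minus strand (Egln3).
Bst2: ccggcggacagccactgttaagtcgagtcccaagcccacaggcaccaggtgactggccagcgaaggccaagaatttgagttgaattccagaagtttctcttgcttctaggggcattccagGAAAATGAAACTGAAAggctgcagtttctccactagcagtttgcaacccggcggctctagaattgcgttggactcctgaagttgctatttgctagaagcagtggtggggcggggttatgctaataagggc
Isg15: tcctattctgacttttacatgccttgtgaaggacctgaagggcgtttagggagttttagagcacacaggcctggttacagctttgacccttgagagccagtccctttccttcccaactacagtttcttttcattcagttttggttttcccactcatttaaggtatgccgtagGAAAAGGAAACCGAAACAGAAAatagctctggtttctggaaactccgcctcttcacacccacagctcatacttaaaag
Ifit3: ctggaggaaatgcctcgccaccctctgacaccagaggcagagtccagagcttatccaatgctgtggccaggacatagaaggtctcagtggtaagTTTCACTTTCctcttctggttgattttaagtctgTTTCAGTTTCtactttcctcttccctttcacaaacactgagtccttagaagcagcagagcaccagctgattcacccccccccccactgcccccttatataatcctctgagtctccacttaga
Hk2: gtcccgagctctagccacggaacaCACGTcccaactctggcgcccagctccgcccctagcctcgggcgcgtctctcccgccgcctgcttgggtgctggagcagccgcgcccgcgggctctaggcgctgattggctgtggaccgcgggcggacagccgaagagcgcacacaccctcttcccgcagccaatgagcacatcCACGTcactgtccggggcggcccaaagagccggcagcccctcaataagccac
Egln3: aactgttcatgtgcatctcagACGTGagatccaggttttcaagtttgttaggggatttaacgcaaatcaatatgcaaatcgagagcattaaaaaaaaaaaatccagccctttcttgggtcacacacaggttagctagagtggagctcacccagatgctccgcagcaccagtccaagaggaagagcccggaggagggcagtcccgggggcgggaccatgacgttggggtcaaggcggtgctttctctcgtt
Bst2 held 2 matches, Isg15 3 that overlap in 1 run of capitals, Ifit3 2, Hk2 2 and Egln3 1. Over the lists, 29 of 40 interferon-induced genes had a window and 15 of these (51.7%) held that motif, against 936 of 27025 genes with a window (3.46%) in all. For glycolysis and hypoxia 21 of 24 had a window and 13 (61.9%) held ACGTG, against 4998 of 27025 (18.5%). ACGTG is short and also lies within motifs of other factors, and a match is a description of the letters only.

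The other lists, chosen with the same earlier results in view, were less uniform between the genotypes. Among all genes 49.9% were below 0 in monocytes and 48.7% in macrophages. Of 28 inflammatory genes 23 were below 0 in monocytes, 3 of them at an unadjusted p under 0.05 (3.68% of all genes on the lower side), and 0 were called (median -0.29, which was -0.09 without KO replicate 2 and -0.57 without KO replicate 4), with Ccl12 at 52.0, 58.0, 84.3 and 114 CPM in KO and 126, 188 and 163 CPM in WT (-1.01, unadjusted p = 0.00169). In macrophages 10 of 30 were below 0 (0.06), and the difference between both was below 0 for 26 of 30 (median -0.42; 53.8% of all genes), with 10 at an unadjusted p under 0.05 on that side (4.31% of all genes) and 0 called. Il1b was the member of smallest p, at -0.27 in monocytes and 0.42 in macrophages, a difference of -0.68 that was not called (adjusted p = 0.304 in edgeR). Its monocyte levels were 5360, 3560, 5470 and 6610 CPM in KO and 7600, 5440 and 5590 CPM in WT, which overlap.

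MHC class II genes had a median of 0.08 in monocytes, with 3 of 10 below 0, and 0.78 in macrophages, with 1 of 11 below 0. The difference between monocytes and macrophages was below 0 for all 11 (median -0.88), where 53.8% of all genes were. An unadjusted p under 0.05 was reached by 3 (H2-DMb2, H2-DMa and H2-Oa, with 4.31% of all genes on that side), and 0 were called. Between monocytes and mo-DCs the difference was below 0 for 4 of 11 (median 0.02), where 52.7% of all genes were. There 0 had an unadjusted p under 0.05 in edgeR. H2-Aa was at 1930, 5030, 6670 and 4700 CPM in KO and 3150, 3930 and 4710 CPM in WT monocytes. In macrophages it was at 2510, 4490, 6320 and 6420 CPM in KO and 693, 3190 and 3820 CPM in WT, where WT replicate 1 was far below the other mice. Of 15 MHC class I genes 14 were below 0 in monocytes (median -0.12; 49.9% of all genes), B2m (-0.37) and Nlrc5 (-0.52) with every KO mouse below every WT mouse (3.14% of all genes). Classical monocyte genes had a median of 0.08 with 6 of 14 below 0, and dissociation stress genes 0.09 with 5 of 14 below 0.

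The difference of the genotype effect was called for 1 of 11410 genes (0.00876%) between monocytes and macrophages and for 2 of 10168 (0.0197%) between monocytes and mo-DCs in edgeR, at an adjusted p under 0.05; 758 (6.64%) and 519 (5.10%) had an unadjusted p under 0.05, and DESeq2 called 0 and 1. Cd209a, a lectin of monocyte-derived dendritic cells, was at 9.75, 3.13, 5.53 and 8.16 CPM in KO and 1.81, 0 and 0.493 CPM in WT monocytes, from 3, 2, 4 and 10 against 6, 0 and 1 UMIs. In mo-DCs it was at 17.6, 11.2, 30.8 and 22.8 CPM in KO and 79.3, 128 and 20.4 CPM in WT. The term was 4.23 ± 0.65 on the log2 scale (adjusted p = 0.0183), rests on those few UMIs in monocytes, and was no longer called without KO replicate 1 (adjusted p = 0.112), KO replicate 2 (0.0547), KO replicate 4 (0.587) or WT replicate 2 (0.108). It was called in 9 of 17 alternative settings.

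The other calls were immunoglobulin light chain segments, which resemble each other in sequence and are uncertain. Igkv1-135, called against macrophages (7.50, adjusted p = 0.00658), was at 0, 0, 0 and 24.5 CPM in KO and 0.301, 60.6 and 0 CPM in WT monocytes. Igkv13-84, called against mo-DCs (7.71, adjusted p = 0.000182), was at 8.13, 0, 0 and 7.76 CPM in KO and 0, 26.6 and 0 CPM in WT monocytes. In monocytes Igkv1-135 exceeded 1 CPM in 2 mice and Igkv13-84 in 3. Igkv13-84 was not called without KO replicate 4 or WT replicate 2 (1.63), and without either of these mice 0 genes were called against macrophages. The smallest p that was not called against macrophages belonged to Procr, the endothelial protein C receptor, at -1.23 in monocytes and 0.77 in macrophages (difference -2.24, adjusted p = 0.151 in edgeR). Monocyte levels of Procr were 3.25, 15.7, 12.4 and 12.2 CPM in KO and 21.4, 40.4 and 24.7 CPM in WT, which do not overlap. Kynu, an enzyme of tryptophan breakdown, was at -0.09 in monocytes and 1.00 in macrophages (-1.28), and Plp2 differed the other way (0.98, adjusted p = 0.284). The other genes of small p that were not called were Cytip (-0.67), the NF-kB protease gene Malt1 (-0.82), Igkv3-10 (7.11), the thymidylate synthase gene Tyms (1.87) and the potassium channel subunit gene Kcnab2 (1.12).

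Of the genes not called on the higher side against mo-DCs, Igkv1-135 had the smallest p (5.89) and Ly6c2 came next, at -0.25 in monocytes and -1.34 in mo-DCs (difference 1.02, adjusted p = 0.132 in edgeR). Vcam1, an adhesion molecule, was at -0.41 in monocytes and 2.93 in mo-DCs (-3.60, adjusted p = 0.154). It was at 3.25, 7.83, 11.1 and 27.8 CPM in KO and 14.5, 32.1 and 17.8 CPM in WT monocytes, and at 13.5, 7.03, 3.63 and 53.6 CPM in KO and 0.372, 2.82 and 5.83 CPM in WT mo-DCs, where KO replicate 4 is high. Mertk was at -0.49 and 0.92 (-1.50, adjusted p = 0.418), and the integrin Itga9 had a difference of -1.90 (adjusted p = 0.190). The cation channel gene Trpm2 (-1.57), Gm15987 (2.24) and the chemokine receptor gene Ccr9 were also not called, and Ccr9 was at 0 in the monocytes of every KO mouse and at 3.92, 1.84 and 2.96 CPM in WT.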

How the data were processed

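Per the submitters' processing notes, FastQC 0.11.5 and STARsolo of STAR 2.7.10a were used with build mm10; settings, annotation and filters on cells are not given in the sources used here. The deposited matrix holds expected counts: unscaled UMIs for 55491 gene rows, with 8.71% of all UMIs in values that are not whole. The deposited cell table gives, per cell, counts of detected genes, the mitochondrial and ribosomal percent of UMIs, and the names and phases assigned by the authors.

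The replicate is the mouse, and nothing says how the mice were spread over cages or days. UMIs were summed per mouse and class (at least 20 cells), rounded to whole numbers and scaled to CPM. The design had been laid out for whole counts. KO and WT were compared in edgeR 4.0.16 (R 4.3.3, limma 3.58.1; TMM, filterByExpr, robust quasi-likelihood), with DESeq2 1.42.0 as an alternative, Benjamini-Hochberg adjustment and a threshold of 0.05. Differences between classes in the genotype effect had a term per mouse. Sex, as an alternative term, was read from Xist and Y-linked genes. Shares were compared by exact permutation of the absolute difference of means. Ratios between classes used a pseudocount of 1 CPM, and the leading genes had at least 50 CPM in the higher class. Python 3.11.15, numpy 2.4.6, pandas 2.3.3, scipy 1.17.1 and matplotlib 3.10.9 were used. The fits were tested on simulated data.

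The cells, gene lists and tests were chosen with earlier results of these data known. Genes named are the 4 markers, the 10 of largest ratio in each direction and class, the called genes or else the 5 of smallest p in each direction, Siglec genes, Sall1, the members of each list with the highest levels, and defining markers of other cells. Other members named were chosen after their values were seen. Gm and Rik models, ribosomal, mitochondrial, Xist and Y-linked genes were left out of the ranked ratios. Cd209f, Aldoa, Clec6a and H2afz were not analysed here. Of the genes that the rule names, 1 of the leading genes and 1 list member are not reported here.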

Additional observations from a re-analysis of the deposited data

Results flagged for a closer look

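In 5 of 39 values examined, 1 KO mouse stood apart from the other KO mice. The values come from the same KO mice and include genes near 0, so this count cannot be set against a chance rate. KO replicate 4 was low in Ccr2 at 274 CPM, beside 439 to 467 CPM in the other KO mice. KO replicate 3 was low in Chil3 at 586 CPM, beside 4170 to 4460 CPM. KO replicate 4 was high in Ccl8 at 8.98 CPM (0 in the others), in Thbs1 at 2960 CPM (1080 to 1380 CPM in the others) and in Pilrb1 at 19.2 CPM (9.75 to 11.1 CPM in the others).

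The genotype effect differed between monocytes and another class for 3 genes by the edgeR test of the difference. These were Cd209a against mo-DCs at 4.23 on the log2 scale, Igkv13-84 against mo-DCs at 7.71 and Igkv1-135 against macrophages at 7.50. B cell markers in the monocytes summed to 20.7 to 55.5 CPM over the mice, and their part in the immunoglobulin values was not tested.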

How the results depend on the processing

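The 0 genes called between KO and WT monocytes became 70 with no filter on low counts and 0 to 3 without 1 mouse (3 without KO replicate 4). Genes differing from macrophages, 1 in the report, were 0 with DESeq2, 47 unfiltered, 0 with equal cells per mouse, 3 in G1 cells and 0 to 17 without 1 mouse (17 without WT replicate 3, 0 without KO replicate 4 or WT replicate 2). Against mo-DCs, 2 became 1 with DESeq2, 37 unfiltered, 1 with sex as a term and 0 to 5 without 1 mouse (5 without WT replicate 3, 0 without KO replicate 4 or WT replicate 2). Cd209a was called in 9 of 17 alternative settings. Among others, it lost its call with sex as a term (4.15, adjusted p = 0.0509 in edgeR) and with equal cells per mouse (6.37). Igkv13-84 lost it with DESeq2 (3.51) and without KO replicate 4 (7.53) or WT replicate 2 (1.63), and Igkv1-135 with DESeq2 (1.69).

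Genes higher than in macrophages numbered 581 at 1.5-fold and 34 at 4-fold, and lower ones 1308, 144, 413 in G1 cells and 106 at 50 CPM or more. For mo-DCs these were 955, 212 and 377 at 50 CPM or more (higher) and 1786, 248 and 283 (lower). Siglece ran from -0.04 (without KO replicate 3 or 4) to 0.24. The medians ran from -0.10 to 0.32 for MHC class II and from -0.08 to 0.28 for classical monocyte genes without 1 mouse. Without 1 mouse the differences in share ran from -10.4 to -4.31 points of all cells, -9.71 to -2.19 of monocytes, macrophages and mo-DCs, and -1.56 to 1.38 for cycling cells (0.353 for G2M alone).

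Same-numbered mice had correlations of deviations of -0.009, 0.0657 and -0.1078 for numbers 1 to 3. Deviations were taken from the means of small groups, so these values cannot decide whether the numbers pair the mice. What the numbers stand for is not given in the sources used here. A block for the number gave 3 called genes in monocytes, 22 differing from macrophages and 5 from mo-DCs. Under this replicate block Siglece was -0.11, Igkv1-135 -1.41 (macrophages) and -1.16 (mo-DCs), Igkv13-84 1.71, Cd209a 4.54 (adjusted p = 0.0624 in edgeR), and the medians of MHC class II and classical monocyte genes -0.03 and -0.10. The cycling share differed by 0.738 points within pairs. The interferon, glycolysis and inflammatory medians were -0.71, -0.47 and -0.60 (28 of 28 below 0 in the last). Gm5586 was called (adjusted p = 0.00103 in edgeR). No KO mouse number best matched its own WT number. The causes of these shifts were not tested. The KO monocytes, from 34 cells in KO replicate 1, limit the depth at which low genes can be compared.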
